A study of Mus musculus with 28 samples.

Results

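Germ cells of Stra8 knockout (KO) mice were compared with those of wild-type (WT) mice 12 h after an injection of retinoic acid. The comparison holds 4 of the 28 libraries of the series, taken by the genotype and time in their labels: 2 WT and 2 KO. All 4 share the strain background, derived from C57BL/6 x 129s4/SvJae, and the pretreatment, a 7-day course of WIN 18,446, which blocks the synthesis of retinoic acid in the testis. Cells were sorted from the testis by the PIWIL2-eGFP reporter, and polyA RNA was sequenced on an Ion Proton instrument. The other groups used here are WT and KO collected after WIN 18,446 alone (0 h) and WT and KO collected 18, 48, 72, 96 and 120 h after retinoic acid, again with 2 libraries each. Nothing in the sources states the age of the mice, the deleted part of Stra8 or whether replicates were separate animals. The p-values therefore rest on the scatter between libraries that may be technical repeats. In sorted bulk samples, fewer cells of a type and less RNA per cell cannot be told apart.

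Retinoic acid enters the nucleus, binds heterodimers of retinoic acid and retinoid X receptors, and switches on genes that carry their binding sites. In the testis it moves undifferentiated spermatogonia, the pool that holds the stem cells, into differentiation, marked by the KIT receptor, and later starts meiosis. Stra8 is one of the genes that retinoic acid switches on in both steps. Its protein is a DNA-binding regulator best known for the meiotic gene programme, and mice without it fail in meiosis.

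At 12 h the genes that passed the test were mostly higher in KO. Of 17519 genes tested, 207 (1.18%) passed an adjusted p of 0.05 in edgeR's quasi-likelihood test, called here. Of these, 190 (1.08% of those tested) were higher in KO and 17 (0.097%) were lower. The called genes higher in KO included regulators of undifferentiated spermatogonia (Neurog3, Utf1, Egr4, Lin28a), Mycn and Mycl, 4 Hox genes, the corepressor genes Nab2 and Bcor, and Chaf1b of the chromatin assembly factor. Those lower in KO held Stra8, the axonemal dynein gene Dnah10 and the meiosis gene M1ap. They held no gene of the meiotic chromosome axis, break or synapsis lists. With 0.097% of all genes called lower, no call is the usual outcome for lists of this size. Each log2 fold change below is KO minus WT unless a change over time is named, ± its standard error (SE). The median log2 fold change was 1.66 over the 190 genes, -1.16 over the 17 and -0.03 over all genes tested. At an unadjusted p under 0.05 the split was nearly even, with 1166 genes higher and 1071 lower. In all 207 called genes the KO pair lay wholly above or wholly below the WT pair, an arrangement that 48.1% of all genes tested showed. Leaving out 1 library left fewer calls: 60 without WT replicate 1, 19 without WT replicate 2, 64 without KO replicate 1 and 64 without KO replicate 2. Of the 55 called genes taken by the naming rule, 18, 10, 20 and 18 kept the call in these 4 fits. With the replicate number as a block within WT only, chosen after seeing the data, 583 genes were called, 440 higher and 143 lower, all 207 among them.

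The 4 libraries held 10135820 and 6515288 reads in genes for WT and 7329098 and 3629629 for KO. Across genes the WT pair had a Pearson correlation of 0.9777 in log2(CPM + 1) and the KO pair 0.9863. Pairs of unlike genotype gave 0.967 to 0.9773. WT replicate 2 was about as close to KO replicate 1 as to WT replicate 1. WT replicate 1 stood apart: mitochondrial genes took 3.06% of its reads against 4.94 to 6.68% in the other 3. Levels are given as CPM, the read count normalised to the library's reads in genes after TMM scaling. WT replicate 1 also held 6394 CPM of Lars2 reads against 209 to 277 CPM in the others, a gene picked after its values were seen. WT replicate 1 had the lowest mitochondrial share of the 4 libraries at all 7 times. Each of the 207 genes had both KO libraries on one side of both WT libraries, so leaving out a library could hardly reverse a sign. All 207 kept their sign without WT replicate 1 at 0, 12 and 18 h. Without it at all 7 times, where WT is taken to vary like KO, 203 genes were called higher and 12 lower, with 134 of the 207 among them. Markers of germ cells summed to 6617 to 7070.3 CPM in WT and 6234 to 6633 CPM in KO. Of the 7 lists of other cell types, 62 members were tested and 0 were called, where 1.18% of all genes were. At that share 62 genes would often hold no call, so the count does not show equal cell content. Sertoli markers summed to 154 to 192 CPM in WT and 174 to 209 CPM in KO, and markers of macrophages and leukocytes to 6.02 to 7.50 and 5.78 to 6.90 CPM. The marker nearest the threshold was Wt1, a Sertoli transcription factor, at 7.90 and 9.73 CPM in the WT libraries and 25.5 and 22.9 CPM in the KO libraries (log2 1.46 ± 0.40, adjusted p = 0.0775). Amh and Fshr, picked from the 18 Sertoli markers after their values were seen, had at most 0.828 and 0.552 CPM in any of the 4 libraries. Other members of the list carry the sums above. Peritubular and stromal markers summed to 125 to 127 CPM in WT and 160.2 to 179 CPM in KO, so KO was higher in both libraries, and their part in the results was not tested. The ranges of the Leydig, endothelial and spermatocyte lists overlapped between genotypes. Leydig markers summed to 133 to 199 CPM in WT and 145 to 211 CPM in KO. Cyp17a1 and Insl3 of Leydig cells, C1qa, C1qb and C1qc of macrophages and Prm1, Prm2 and Tnp2 of spermatids had no read in any of the 4. Other members of these lists had reads, so the cell types cannot be called absent.

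Stra8 (ENSMUSG00000029848.11, chr6:34920163-34939344, + strand, GRCm38) served as the check of the labels. It stood at 722 and 1049 CPM in the WT libraries and 31.0 and 26 CPM in the KO libraries at 12 h, so that KO lay far below WT in both libraries, by 30.9-fold in the fit. The log2 fold change was -4.95 ± 0.87, adjusted p = 0.0119. At 0 h it was -3.24 ± 1.13, adjusted p = 0.710, and at 18 h -5.32 ± 0.89, adjusted p = 0.00284. The KO libraries still held 225 and 94 Stra8 reads. The call was lost without WT replicate 2, KO replicate 1, KO replicate 2, or WT replicate 1 at 0, 12 and 18 h or at all 7 times, at log2 fold changes of -5.18 to -4.66 over all alternatives and an adjusted p of up to 0.182. From 0 to 12 h Stra8 rose in KO, at a log2 change of 4.56 ± 1.09, adjusted p = 0.0186, from 0.944 and 1.66 CPM. In WT it rose by 6.27 ± 0.93, adjusted p = 0.000420, from 7.52 and 15.8 CPM. These changes share the 12 h libraries with the comparison of genotypes, and the difference between them was not called (log2 -1.71 ± 1.54, adjusted p = 0.966).

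The window from 250 bases before to 50 after the RefSeq start of Stra8 holds the letters AGGTCA, the half-site bound by retinoic acid receptors and other nuclear receptors, at 194 and at 38 bases before the start. Both places lie inside an exon of a longer annotated Stra8 transcript, so only 30 bases around each are shown, 5′ to 3′ on the + strand of GRCm38.p6 from RefSeq, with the half-site in capitals.
Stra8 chr6:34920742-34920771: gatggggtgaaaAGGTCAtcttgctccttc
Stra8 chr6:34920898-34920927: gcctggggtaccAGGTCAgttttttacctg

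The called genes with the smallest p were all higher in KO. Nab2, a corepressor of the EGR transcription factors, stood at 46.0 and 46.0 CPM in the WT libraries and 174 and 179 CPM in the KO libraries. Both WT libraries gave nearly the same value and both KO libraries lay above them, 3.84-fold in the fit, with a log2 fold change of 1.94 ± 0.21, adjusted p = 5.02e-05. By its GENCODE annotation, 42.2% of the Nab2 exon length overlaps exons of genes on the opposite strand, Stat6 and Nemp1 among them, and the sources do not say whether counting used strand, so reads of these genes cannot be told apart from those of Nab2.

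Mycn (ENSMUSG00000037169.15, chr12:12936093-12941914, - strand), a MYC family transcription factor that drives growth and is active in spermatogonial progenitors, stood at 25.6 and 31.2 CPM in the WT libraries and 95.6 and 94.2 CPM in the KO libraries. The groups were far apart and the libraries within each close together (log2 1.74 ± 0.20, adjusted p = 5.02e-05). Its bases upstream of the annotated transcripts hold the letters TTTGGCGC, an E2F-type site, at 183 and 168 bases before the RefSeq start. They are shown because Mycn was the only gene whose genotype difference changed between 0 and 12 h by test, 5′ to 3′ on the - strand of GRCm38.p6 from RefSeq, with the E2F-type letters in capitals.
Mycn chr12:12941915-12942086: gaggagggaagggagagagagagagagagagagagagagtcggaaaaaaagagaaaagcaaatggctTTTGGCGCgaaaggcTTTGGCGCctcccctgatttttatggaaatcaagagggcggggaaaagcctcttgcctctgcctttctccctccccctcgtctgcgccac

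Slc9a3r2, a PDZ scaffold protein of the membrane, stood at 29.7 and 20.1 CPM in the WT libraries and 105 and 96.4 CPM in the KO libraries (log2 2.01 ± 0.24, adjusted p = 0.000123). Bcor, a subunit of a Polycomb repressor complex, stood at 21 and 14.2 CPM in the WT libraries and 78.4 and 83.7 CPM in the KO libraries (log2 2.19 ± 0.27, adjusted p = 0.000167). Neither gene showed any overlap between WT and KO, which the naming rule required. Fbxo40, an F-box protein best known from muscle, stood at 13.0 and 9.89 CPM in the WT libraries and 63.6 and 70.4 CPM in the KO libraries (log2 2.54 ± 0.33, adjusted p = 0.000219). Jph4, a junctophilin that ties the endoplasmic reticulum to the cell membrane, stood at 11.9 and 9.27 CPM in the WT libraries and 44.1 and 36.5 CPM in the KO libraries (log2 1.92 ± 0.25, adjusted p = 0.000219). These 6 genes, with Egr4 and Cass4, were the named genes that stayed called in all 16 alternative settings, each left-out library included.

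**Figure D1:**
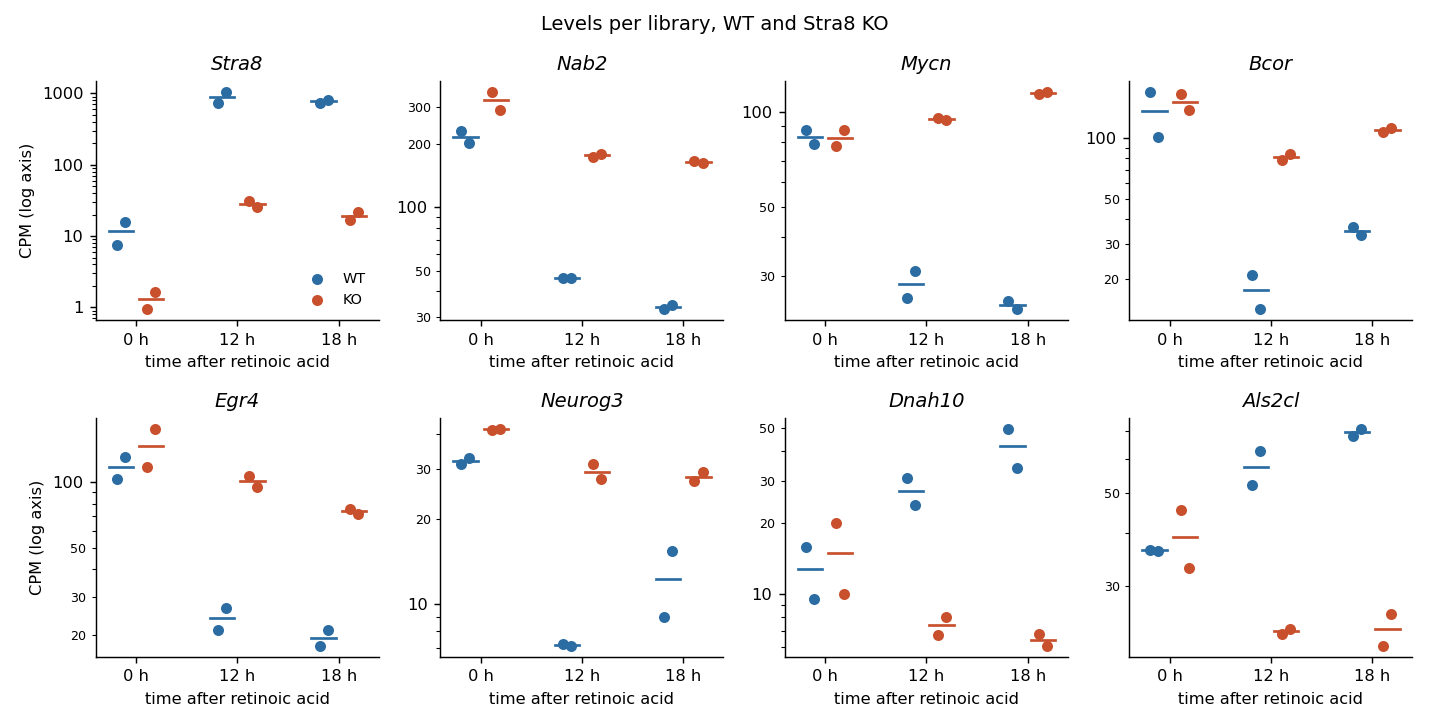
CPM on a log axis (vertical) at 0, 12 and 18 h after retinoic acid (horizontal) for 8 genes, 1 point per library, with a line at the mean of each group of 2; blue is WT and red is KO. At 12 h Nab2, Mycn, Bcor, Egr4 and Neurog3 lie higher in both KO libraries than in both WT libraries, and Stra8, Dnah10 and Als2cl lie lower.

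The largest positive log2 fold changes among called genes of at least 5 CPM in either group belonged to genes near the detection limit in WT. Krt75, a keratin of the hair follicle, had 1 and 0 reads in WT and 47 and 16 in KO, so its fitted log2 fold change (log2 6.13 ± 1.02, adjusted p = 0.00248) depends on the prior count. Krt73, a related keratin, stood at 1.6 and 1.39 CPM in the WT libraries and 10.2 and 23.5 CPM in the KO libraries (log2 3.46 ± 0.74, adjusted p = 0.0229). Pdcd1lg2, a ligand of the PD-1 receptor, stood at 0.90 and 0.309 CPM in the WT libraries and 6.89 and 11.9 CPM in the KO libraries (log2 3.81 ± 0.73, adjusted p = 0.00860). The KO libraries of Krt73 differed widely from each other. A lack of overlap between groups was a condition for naming both genes. Cass4, a scaffold of the Cas adhesion family, stood at 1.10 and 1.70 CPM in the WT libraries and 14.3 and 14.4 CPM in the KO libraries (log2 3.38 ± 0.45, adjusted p = 0.000304). Rph3a, a vesicle protein that binds RAB GTPases, stood at 2.10 and 1.85 CPM in the WT libraries and 22.6 and 24.3 CPM in the KO libraries (log2 3.55 ± 0.72, adjusted p = 0.0132). Ambp, the precursor of alpha-1-microglobulin, stood at 1.10 and 0.772 CPM in the WT libraries and 9.64 and 14.4 CPM in the KO libraries (log2 3.62 ± 0.70, adjusted p = 0.0171). All 3 were low in WT. Sox2, a pluripotency transcription factor, stood at 0.700 and 0.618 CPM in the WT libraries and 5.37 and 4.97 CPM in the KO libraries (log2 2.93 ± 0.68, adjusted p = 0.0295). Sfxn1, a mitochondrial serine carrier, stood at 1.80 and 2.47 CPM in the WT libraries and 14.5 and 15.7 CPM in the KO libraries (log2 2.83 ± 0.53, adjusted p = 0.00671). Neither reached 3 CPM in WT. The other 7 of the 15 named by size were Zhx2, a zinc-finger homeobox repressor, Cd72, a B cell surface protein, Slc44a3, a choline transporter-like protein, Gprc5a, an orphan receptor named for its induction by retinoic acid, Gbp8, a guanylate-binding protein, Kcnh1, a potassium channel, and Dmkn, the secreted protein dermokine, with log2 fold changes of 2.9 to 3.52. Of the Cd72 exon length, 41.6% overlaps Tesk1 on the opposite strand, itself called higher (log2 0.92). Of the Cass4 exon length, 21.2% overlaps Gm14455 on the opposite strand. A further 13 of the 190 genes stayed under 5 CPM in both groups, and 8 were gene models without a name. Among the abundant genes, Lamb1, the laminin beta chain of basement membranes, stood at 697 and 454 CPM in the WT libraries and 1108 and 1445 CPM in the KO libraries (log2 1.15 ± 0.24, adjusted p = 0.0168), the highest KO level of any called gene.

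The 17 genes lower in KO were fewer and, Stra8 apart, changed less. Dnah10, an axonemal dynein heavy chain, stood at 30.8 and 23.8 CPM in the WT libraries and 6.75 and 8.01 CPM in the KO libraries (log2 -1.90 ± 0.35, adjusted p = 0.00626). Pde1b, a calmodulin-dependent phosphodiesterase, stood at 11.2 and 9.42 CPM in the WT libraries and 2.34 and 3.31 CPM in the KO libraries (log2 -1.91 ± 0.40, adjusted p = 0.0151). Als2cl stood at 52.2 and 62.9 CPM in the WT libraries and 23.0 and 23.8 CPM in the KO libraries (log2 -1.30 ± 0.24, adjusted p = 0.00664). In all 3 both KO libraries lay below both WT libraries, which the naming rule required. Of the Als2cl exon length, 15.5% overlaps genes on the opposite strand. M1ap, a protein that male meiosis needs, stood at 37.6 and 55.0 CPM in the WT libraries and 22.7 and 18.0 CPM in the KO libraries (log2 -1.17 ± 0.24, adjusted p = 0.0138). Ids, a lysosomal sulfatase, stood at 21.5 and 22.6 CPM in the WT libraries and 10.2 and 9.39 CPM in the KO libraries (log2 -1.16 ± 0.27, adjusted p = 0.0295). Vamp1, a vesicle fusion protein, stood at 41.6 and 34.3 CPM in the WT libraries and 20.8 and 16.6 CPM in the KO libraries (log2 -1.01 ± 0.22, adjusted p = 0.0229). Again no KO library reached the lower WT library, by the same rule. The other called genes lower in KO were Bicd1 (a dynein adaptor), St8sia5 (a sialyltransferase), Ppp4r4 (a phosphatase subunit), Apeh (an acylpeptide hydrolase), Rap1gap (an inhibitor of RAP1), Ankrd13d, Capn5 (a calpain), Unc5d (a netrin receptor), Tmem175 (a lysosomal potassium channel) and Inpp5b (an inositol phosphatase), at log2 fold changes of -1.52 to -0.77. Of the Tmem175 exon length, 35.3% overlaps Dgkq on the opposite strand. None of the 17 was called without KO replicate 2. Without WT replicate 1, Stra8, Als2cl and M1ap were called lower, and without WT replicate 2 Dnah10 was.

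**Figure D2:**
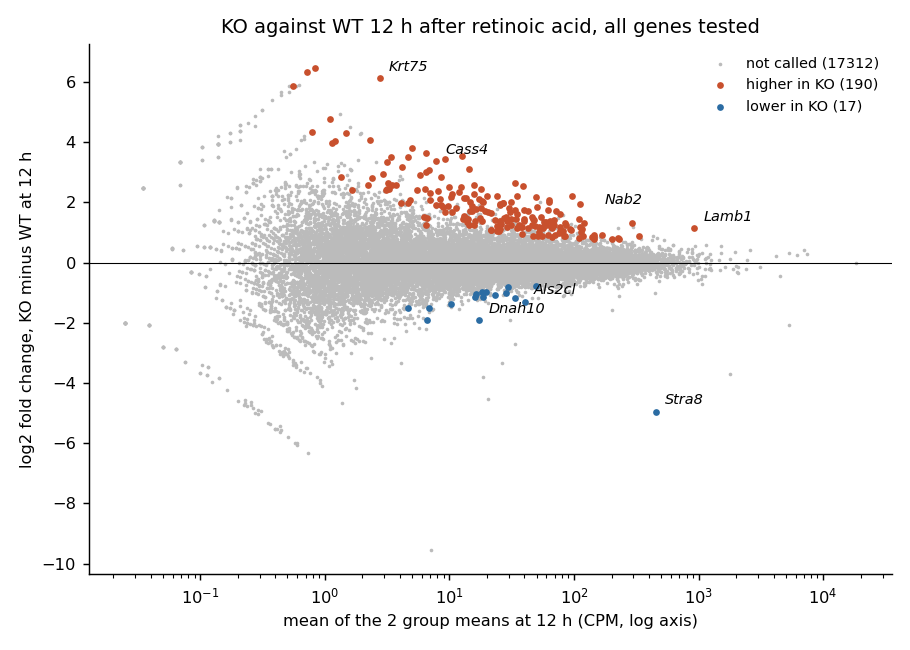
Each point is 1 of the 17519 genes tested: the mean of the WT and KO levels at 12 h in CPM (horizontal, log axis) against the log2 fold change, KO minus WT (vertical). Red points mark the 190 genes called higher in KO and blue points the 17 called lower; the called genes above the line outnumber those below it, and Stra8 lies at -4.95.

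Undifferentiated spermatogonia are held in their state by a set of transcription factors and RNA-binding proteins. Of 30 such genes tested, 5 were called higher in KO and 0 lower, where 1.08% of all genes were called higher and 0.097% lower. Their median log2 fold change was 0.63, against -0.03 over all genes. In 20 of the 30 both KO libraries lay above both WT libraries, an arrangement found in 22.4% of all genes. In 0 they lay below, where 25.8% of all genes did. Egr4, an early growth response factor, stood at 21.2 and 26.7 CPM in the WT libraries and 107 and 95.3 CPM in the KO libraries (log2 2.08 ± 0.27, adjusted p = 0.000236). Neurog3, a factor of progenitors that are about to differentiate, stood at 7.20 and 7.11 CPM in the WT libraries and 31.3 and 27.6 CPM in the KO libraries (log2 2.04 ± 0.33, adjusted p = 0.00189). Utf1, a chromatin protein of pluripotent and undifferentiated cells, stood at 9.0 and 10.7 CPM in the WT libraries and 32.5 and 30.1 CPM in the KO libraries (log2 1.68 ± 0.29, adjusted p = 0.00278). For all 3 the lower KO library held over 2 times the CPM of the higher WT library. Of the Neurog3 exon length, 16.3% overlaps Fam241b on the opposite strand. Lin28a, which blocks maturation of let-7 microRNAs, stood at 244 and 223 CPM in the WT libraries and 404 and 464 CPM in the KO libraries (log2 0.89 ± 0.18, adjusted p = 0.0115). Upp1, a uridine phosphorylase, stood at 23.7 and 29.7 CPM in the WT libraries and 56.9 and 60.2 CPM in the KO libraries (log2 1.14 ± 0.25, adjusted p = 0.0243). Nanos3, an RNA-binding protein, came nearest among those not called, at 8.80 and 6.64 CPM in WT and 16.7 and 21 in KO (log2 1.26 ± 0.32, adjusted p = 0.0529). Among other members not called, picked after their values were seen, Gfra1, the GDNF receptor, had 110.3 and 69.8 CPM in WT and 111 and 175 CPM in KO (log2 0.66 ± 0.28, adjusted p = 0.303), and Zbtb16 (PLZF) had 291 and 162 CPM in WT and 344 and 339 CPM in KO (log2 0.59 ± 0.26, adjusted p = 0.334). Both KO libraries lay above both WT libraries in each. Without WT replicate 1 at 0, 12 and 18 h, Egr4 and Neurog3 were called and Lin28a, Upp1 and Utf1 were not. Lin28a and Upp1 also lost the call when any 1 of the 4 libraries was left out.

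Of 24 retinoic acid genes (signalling and metabolism), 1 was called, where 1.18% of all genes were, and the list's median log2 fold change was 0.20. The called gene was Rarg, the gamma receptor of retinoic acid, at 57.8 and 60.7 CPM in the WT libraries and 93.4 and 123 CPM in the KO libraries (log2 0.87 ± 0.18, adjusted p = 0.0151). Cyp26a1 and Rarb, picked from the list as genes that retinoic acid switches on, were not called. Cyp26a1, the retinoic acid hydroxylase, had 26.9 and 45.7 CPM in WT and 37.7 and 34.0 CPM in KO (log2 -0.01 ± 0.49, adjusted p = 0.997), and Rarb, the beta receptor, had 10.1 and 11.7 CPM in WT and 7.44 and 10.5 CPM in KO (log2 -0.29 ± 0.54, adjusted p = 0.873). The genotypes overlapped for both genes. Stra6, the membrane receptor for retinol uptake, had 23.5 and 10.7 CPM in WT and 33.1 and 58.8 CPM in KO (log2 1.41 ± 0.50, adjusted p = 0.211), with a wide spread inside each genotype.

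Of 20 genes listed for differentiating spermatogonia, Stra8, the targeted gene, was called lower and Ddit4 higher, with a list median of 0.16. Over all genes tested, 0.097% were called lower and 1.08% higher. Ddit4, an inhibitor of the growth kinase mTORC1, stood at 6.80 and 12.2 CPM in the WT libraries and 18.6 and 26 CPM in the KO libraries (log2 1.24 ± 0.28, adjusted p = 0.0254). Though listed here, Ddit4 fell from 0 to 12 h, from means of 96.0 to 9.50 CPM in WT and 156 to 22.3 CPM in KO. Whether its higher level in KO bears on differentiation was not tested. Kit, the receptor that marks differentiation, had 1412 and 999.5 CPM in WT and 855 and 1241 CPM in KO (log2 -0.20 ± 0.35, adjusted p = 0.863), with overlapping genotypes. The proliferation marker Mki67 had 592 and 849 CPM in WT and 674 and 527 CPM in KO (log2 -0.26 ± 0.37, adjusted p = 0.826). Dmrt1, a DM-domain factor that restrains meiosis in spermatogonia, had 282 and 392 CPM in WT and 625 and 555 CPM in KO, with no overlap, and missed the threshold (log2 0.81 ± 0.22, adjusted p = 0.0791).

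Of 28 Hox genes listed, which give cells their place along the body axis, 21 passed the expression filter, and 4 of these were called higher and 0 lower. The 21 had a median log2 fold change of 1.58, with both KO libraries above both WT libraries in 17 and below in 1. Of all genes tested, 1.08% were called higher, 22.4% lay above in this way and 25.8% below. Hoxb4 stood at 5.90 and 7.72 CPM in the WT libraries and 26.2 and 18.2 CPM in the KO libraries (log2 1.72 ± 0.38, adjusted p = 0.0221). Hoxb8 stood at 4.0 and 1.70 CPM in the WT libraries and 15.4 and 18.2 CPM in the KO libraries (log2 2.51 ± 0.60, adjusted p = 0.0351). Hoxb7 stood at 2.70 and 1.85 CPM in the WT libraries and 11.4 and 11.9 CPM in the KO libraries (log2 2.32 ± 0.55, adjusted p = 0.0350), and its KO levels were nearly equal. Hoxc4 stood at 1.40 and 1.85 CPM in the WT libraries and 6.06 and 6.90 CPM in the KO libraries (log2 1.99 ± 0.48, adjusted p = 0.0355). Hoxb4, Hoxb7 and Hoxb8 lie in 1 cluster on chromosome 11, and Hoxc4 on chromosome 15. All 4 lost the call when any of the 4 libraries was left out, and without WT replicate 1 at 0, 12 and 18 h. Of the Hox genes not called, Hoxb1, the member known for a retinoic acid response element, had 2.4 and 2.16 CPM in WT and 11 and 9.39 CPM in KO (log2 2.15 ± 0.65, adjusted p = 0.123). The 4 called genes had at most 7.72 CPM in WT.

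In the MYC network, 2 of 11 genes tested were called higher, Mycn and Mycl, where 1.08% of all genes were, and the list's median was -0.05. Mycl stood at 19.1 and 27.3 CPM in the WT libraries and 47.1 and 58.3 CPM in the KO libraries (log2 1.18 ± 0.24, adjusted p = 0.0132). The partner Max had 41.5 and 32.7 CPM in WT and 42.7 and 65.7 CPM in KO (log2 0.53 ± 0.22, adjusted p = 0.303), and Myc itself did not pass the expression filter. Of 46 genes of DNA replication and the G1/S step, 1 was called, where 1.18% of all genes were, namely Chaf1b. It encodes a subunit of the factor that deposits histones behind the replication fork and stood at 68.9 and 49.4 CPM in the WT libraries and 164 and 159.9 CPM in the KO libraries (log2 1.45 ± 0.23, adjusted p = 0.00143). The median of this list was -0.14, and in 22 of 46 genes both KO libraries lay below both WT libraries, against 25.8% of all genes. Mcm6, a helicase subunit, had 487 and 559 CPM in WT and 425 and 384 CPM in KO (log2 -0.37 ± 0.17, adjusted p = 0.356), and Rrm2, a ribonucleotide reductase subunit, had 44.6 and 52.1 CPM in WT and 36.5 and 28.4 CPM in KO (log2 -0.56 ± 0.27, adjusted p = 0.393). Chaf1a, the partner of Chaf1b, had 172 and 167 CPM in WT and 167 and 156 CPM in KO (log2 -0.07 ± 0.21, adjusted p = 0.937), a similar level in all 4 libraries.

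None of 3 lists of meiotic genes held a call at 12 h, where 1.18% of all genes were called. Lists this small often hold no call at that share. M1ap, outside the 3 lists, was called lower. Of 18 genes of meiotic cohesins and the chromosome axis, 20 of break formation and strand exchange and 18 of the synaptonemal complex and crossovers, 0 were called in either direction. Their medians were -0.28, -0.28 and -0.12, and both KO libraries lay below both WT libraries in 10, 9 and 6 genes and above in 1, 0 and 1. Over all genes tested, 25.8% lay below and 22.4% above in this way, so the 6 of 18 are near the share of all genes. Members not called are named here by their role, after their values were seen, apart from the one nearest the threshold in each list. Mei1, needed for meiotic breaks, had 120.2 and 100.4 CPM in WT and 73.8 and 57.2 CPM in KO (log2 -0.75 ± 0.21, adjusted p = 0.0897) and came nearest the threshold of the 3 lists. Nearest in the other lists were Rad21l, a cohesin (log2 -0.72 ± 0.32, adjusted p = 0.335), and Shoc1, a crossover factor listed as AI481877 (log2 -0.74 ± 0.24, adjusted p = 0.168). Among the abundant members, Stag3, a meiotic cohesin, had 629 and 629.6 CPM in WT and 499.7 and 461 CPM in KO (log2 -0.39 ± 0.18, adjusted p = 0.371). Prdm9, which sets the places of breaks, had 6.80 and 10.5 CPM in WT and 4.68 and 4.14 CPM in KO (log2 -0.94 ± 0.45, adjusted p = 0.386). For Mei1, Stag3 and Prdm9 both KO libraries were below both WT libraries. Other members overlapped: Rec8, a cohesin, had 72.6 and 111 CPM in WT and 89.1 and 119.9 CPM in KO (log2 0.19 ± 0.32, adjusted p = 0.861), and Sycp3, of the axis, had 40.9 and 73.8 CPM in WT and 90.1 and 57.7 CPM in KO (log2 0.38 ± 0.38, adjusted p = 0.726). Meiosin, the partner of STRA8, listed in the tables as Gm4969, had 53.2 and 42.2 CPM in WT and 40.4 and 40.3 CPM in KO (log2 -0.24 ± 0.26, adjusted p = 0.749). The Meiosin levels were close together in KO and apart in WT.

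Of 34 genes of autophagy, lysosome and nutrient sensing, 2 were called higher. Over all genes tested, 1.08% were called higher and 1.18% either way, the shares to set beside each list of this paragraph. Rragd, a RAG GTPase that signals amino acids to mTORC1, stood at 33.2 and 25 CPM in the WT libraries and 64.5 and 71.0 CPM in the KO libraries (log2 1.21 ± 0.19, adjusted p = 0.00155). Gabarapl1, an autophagosome protein, stood at 15.6 and 16.7 CPM in the WT libraries and 34.3 and 35.1 CPM in the KO libraries (log2 1.10 ± 0.19, adjusted p = 0.00362). Ulk2, an autophagy kinase, was the gene just outside the threshold over the whole table, at 53.5 and 61.8 CPM in WT and 32.9 and 35.9 CPM in KO (log2 -0.75 ± 0.19, adjusted p = 0.0507), and the list's median was 0.02. Of the Gabarapl1 exon length, 28.3% overlaps another gene on the opposite strand. The FGF, GDNF and MAPK feedback list (25 tested, median 0.20) held 1 call, Egr4, which it shares with the undifferentiated list. The list of immediate early and heat shock genes (28 tested, median 0.28) held 1, Gadd45g, a growth arrest protein, at 2.80 and 4.63 CPM in the WT libraries and 20.9 and 21.3 CPM in the KO libraries (log2 2.52 ± 0.59, adjusted p = 0.0359). Of 19 glycolysis genes, with a median of 0.18, 1 was called, Ldhb, a lactate dehydrogenase, at 23.3 and 33.1 CPM in the WT libraries and 85.7 and 74.0 CPM in the KO libraries (log2 1.51 ± 0.37, adjusted p = 0.0456). Both were higher in each KO library. Of 18 genes of germline DNA methylation and genes that methylation silences, Dppa2, an early embryonic chromatin factor, was called at low levels, 0.100 and 0.154 CPM in the WT libraries and 2.62 and 1.93 CPM in the KO libraries (log2 4.04 ± 0.91, adjusted p = 0.0256), and was not called by DESeq2. No gene was called in the lists of E2F factors and D cyclins (24 tested, median 0.08), mitosis (36, -0.06), the piRNA pathway (26, -0.10), PRC1.6 repressors (15, 0.01), p53 targets (25, 0.17), mitochondrially encoded subunits (13, 0.30) or antigen presentation (18, 0.44). The member nearest the threshold in each, in that order, was Cdk6 (adjusted p = 0.219), Anln (0.318), Dnmt3l (0.234), Max (0.303), Sesn1 (0.134), mt-Nd6 (0.492) and Bst2 (0.107).

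**Figure D3:**
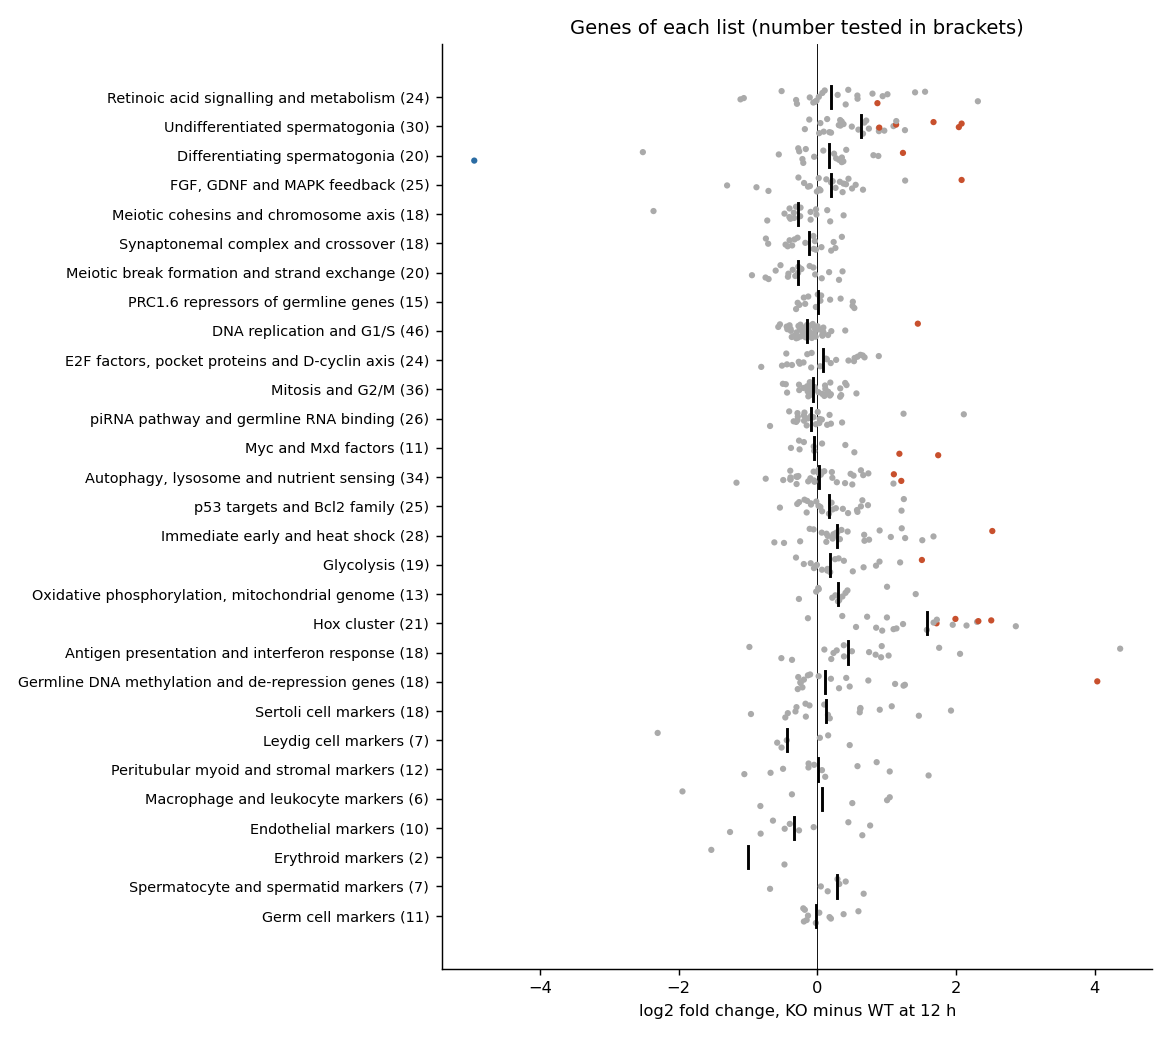
Log2 fold change, KO minus WT at 12 h (horizontal), of each tested gene in 29 lists (vertical; number tested in brackets); red points were called higher in KO, blue lower, grey not called, and the black bar is the list's median. The Hox genes have the median farthest to the right, at 1.58, and the undifferentiated list follows at 0.63, and most points of the meiotic and replication lists sit near 0.

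Before retinoic acid no gene passed the test between the genotypes. At 0 h, 0 of 17519 genes (0%) were called by edgeR between KO and WT, while 1193 had an unadjusted p under 0.05. Of the 190 genes higher at 12 h, 159 already had a positive difference at 0 h, where 48.8% of all genes did, at a median of 0.33. Of the 17 lower genes, 9 were negative at 0 h, Stra8 among them. With 48.8% of all genes positive there, this is near the share of all genes. Nab2 stood at 230.3 and 202 CPM in the WT libraries and 353 and 291 CPM in the KO libraries at 0 h (log2 0.58). Bcor stood at 170.1 and 102 CPM in the WT libraries and 166 and 138 CPM in the KO libraries at 0 h (log2 0.16). The KO libraries were above for Nab2 and among the WT libraries for Bcor, without a call. The test of the genotype difference at 12 h against that at 0 h called 1 gene (0.00571%), Mycn, while 1001 had an unadjusted p under 0.05 and DESeq2 called 21. Mycn stood at 87.6 and 79.3 CPM in the WT libraries and 77.9 and 87.4 CPM in the KO libraries at 0 h, so the genotypes overlapped there, and the difference grew by a log2 of 1.76 ± 0.27, adjusted p = 0.0191. With the replicate number as a block this test called 12 genes. Same-numbered WT libraries deviated together in all 21 pairs of times (correlation across genes 0.22 to 0.57), and with a block within WT only, chosen after seeing the data, 24 were called, Mycn among them. The call was lost without WT replicate 1, KO replicate 1 or KO replicate 2 at 12 h, without WT or KO replicate 1 at 0 h, and without WT replicate 1 at 0, 12 and 18 h or at all 7 times. Cass4 (log2 3.38 ± 0.58, adjusted p = 0.0563), Bcor (log2 2.03 ± 0.37, adjusted p = 0.0607) and Rragd (log2 1.45 ± 0.26, adjusted p = 0.0607) came next and did not pass.

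At 18 h, in other libraries that share replicate numbers with those of 12 h, most genes called at 12 h were called again in the same direction. Between KO and WT at 18 h, 726 genes (4.14%) were called, 544 higher (3.11%) and 182 lower (1.04%). They included 159 of the 190 genes higher at 12 h and 11 of the 17 lower, and all 207 had the same sign. With the block within WT only, 172 of the 190 were called higher, where 4.57% of all genes were. Of the 17, 12 were called lower in that fit, where 2.2% of all genes were. The 170 shared calls were 82.1% of the calls at 12 h and 23.4% of those at 18 h. Without WT replicate 1 at 0, 12 and 18 h, 92 of the 190 and 4 of the 17 were called at 18 h in the same direction, where 0.813% of all genes were called higher and 0.071% lower. Of the undifferentiated list 9 genes were called higher at 18 h, with a median of 0.91, and of the Hox list 4, with a median of 1.39. Nab2 stood at 32.8 and 34.4 CPM in the WT libraries and 166 and 163 CPM in the KO libraries at 18 h (log2 2.29 ± 0.22, adjusted p = 1.50e-06). Fbxo40 stood at 2.94 and 3.95 CPM in the WT libraries and 61.8 and 48.4 CPM in the KO libraries (log2 4.0 ± 0.36, adjusted p = 8.62e-07). Dnah10 stood at 49.8 and 34.1 CPM in the WT libraries and 6.79 and 6.05 CPM in the KO libraries (log2 -2.70 ± 0.36, adjusted p = 6.81e-05). Each pair of groups was separated, on the same side as at 12 h. Among the genes called at 12 h only, Hoxb7 had 0.883 and 2.39 CPM in the WT libraries and 6.79 and 4.70 CPM in the KO libraries (log2 1.84 ± 0.58, adjusted p = 0.0786), and Vamp1 had 44.7 and 41.7 CPM in the WT libraries and 24.7 and 31.8 CPM in the KO libraries (log2 -0.61 ± 0.22, adjusted p = 0.132). The test of the difference at 18 h against that at 12 h called 0 genes in edgeR, with 198 at an unadjusted p under 0.05, and 0 in DESeq2. The smallest p belonged to Col6a3, a collagen chain, at 20.2 and 8.96 CPM in the WT libraries and 12.0 and 17.1 CPM in the KO libraries at 12 h and 3.14 and 2.51 CPM in the WT libraries and 14.1 and 11 CPM in the KO libraries at 18 h (change of the difference, log2 2.18 ± 0.55, adjusted p = 0.999994), then Paqr5, a membrane progestin receptor (change of the difference, log2 -5.97 ± 1.59, adjusted p = 0.999994), and Lamb1. Lamb1 stood at 257 and 305 CPM in the WT libraries and 1365 and 1614 CPM in the KO libraries at 18 h (log2 2.41 ± 0.25, adjusted p = 6.28e-06), and its difference at 18 h exceeded that at 12 h by a log2 of 1.26 ± 0.34, adjusted p = 0.999994, which was not called.

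**Figure D4:**
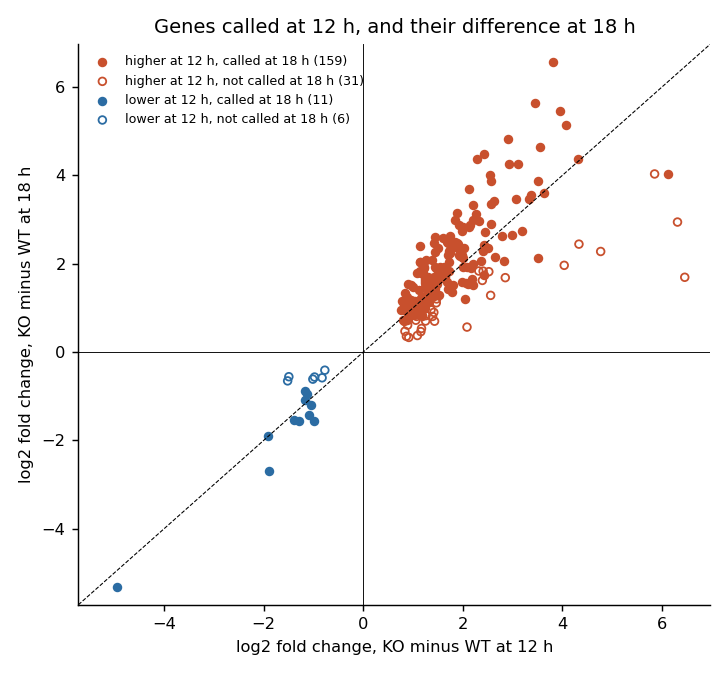
Log2 fold change, KO minus WT, at 12 h (horizontal) against the same at 18 h (vertical) for the 207 genes called at 12 h; filled points were also called at 18 h, open points were not, red is higher and blue lower at 12 h, and the dashed line marks equal values. All points lie in the quadrants of equal sign, with 170 filled.

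At later times, fewer of the 190 genes were called higher at first: 30 at 48 h, 87 at 72 h, 107 at 96 h and 136 at 120 h. The shares of all genes called higher were 0.291, 2.58, 3.32 and 8.54%, and the shares called either way 0.308, 4.7, 4.47 and 15.4%. None of the 190 was called lower at 120 h. At these 4 times, of the 17 lower genes, 0, 6, 6 and 10 were called lower, where 0.0171, 2.12, 1.15 and 6.88% of all genes were. Nab2 had means of 66.0 CPM in WT and 169 CPM in KO at 48 h and 53.5 and 243 CPM at 120 h. Mycn had 51.5 and 68.5 CPM at 48 h (adjusted p = 0.579) and 50.7 and 72.1 CPM at 120 h (adjusted p = 0.0894) and was called at neither time. WT replicate 1 had the low mitochondrial share at these times too. Without it at all 7 times, 31, 59, 79 and 133 of the 190 were called higher at 48, 72, 96 and 120 h, where 0.391, 1.59, 2.43 and 9.68% of all genes were, and 0, 1, 5 and 5 of the 17 lower, where 0.0614, 0.888, 1.49 and 8.37% were. At 72, 96 and 120 h 1 KO library of each pair was shallow, at 913055 to 1078460 reads.

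The course from 0 to 18 h, which uses none of the 12 h libraries, showed in which genotype these genes moved. In WT, 123 of the 190 genes fell and 1 rose, where 6.87% of all genes fell (11.9% changed), and their median log2 change was -1.51. In KO, 30 fell and 22 rose, where 5.11% of all genes fell and 3.81% rose (8.93% in all), and the median was -0.09. Without WT replicate 1 at 0, 12 and 18 h, 64 of the 190 fell in WT, where 1.77% of all genes did. Of the 17 lower genes, 10 rose and 0 fell in WT, where 5.07% of all genes rose, and in KO 1 rose and 2 fell. Without the same libraries 1 of the 17 rose in WT, where 0.59% of all genes did. Fbxo40 fell in WT by a log2 of -3.98 ± 0.36, adjusted p = 8.77e-08, and its KO value was -0.29 ± 0.30, adjusted p = 0.620. Ddit4 fell in both genotypes, by -4.08 ± 0.29, adjusted p = 3.47e-09 in WT and -3.12 ± 0.28, adjusted p = 2.88e-07 in KO. Rph3a did the reverse of Fbxo40: it rose in KO (log2 4.81 ± 0.88, adjusted p = 0.00149) and had -0.20 ± 0.99, adjusted p = 0.944, in WT. Dnah10 rose in WT (log2 1.71 ± 0.33, adjusted p = 0.00116) and fell in KO (log2 -1.24 ± 0.36, adjusted p = 0.0325). Chaf1b was the opposite, with -0.86 ± 0.23, adjusted p = 0.0134 in WT and 0.75 ± 0.22, adjusted p = 0.0365 in KO. Both genes passed the test in both genotypes, in opposite directions.

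**Figure D5:**
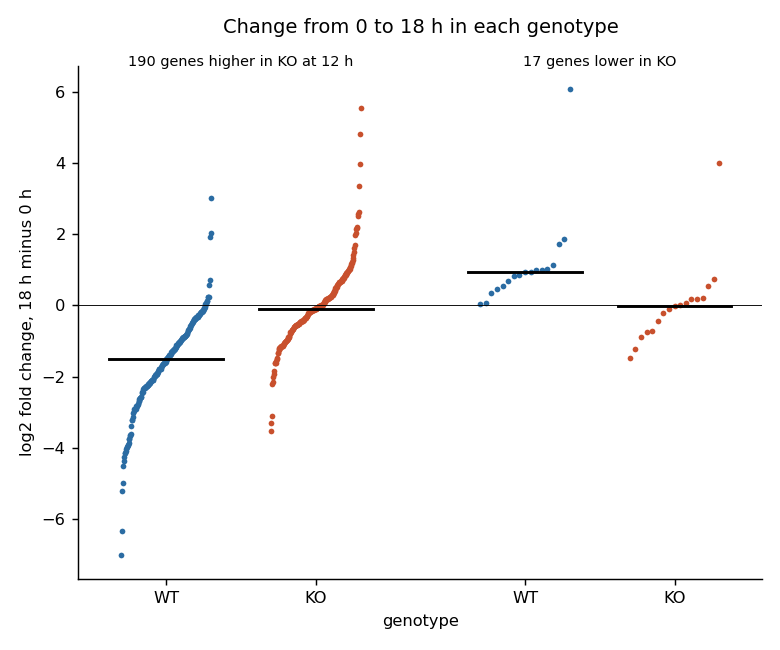
Log2 change from 0 to 18 h (vertical) in WT (blue) and KO (red) for the 190 genes higher and the 17 genes lower in KO at 12 h, 1 point per gene, sorted within each column, with a bar at the median. The higher genes have a median of -1.51 in WT and -0.09 in KO, and the lower genes 0.93 in WT and -0.03 in KO.

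The called genes were spread over the genome. Of 16416 tested genes with 1 position in GENCODE M21 (GRCm38), 202 were called (1.23%), and of these 200 were protein-coding. Within 10 Mb of Stra8 on chromosome 6, 0 of 115 other genes were called, and within 20 Mb 1 of 205, Igf2bp3, an RNA-binding protein, 14.2 Mb away and higher in KO (log2 1.22). Promoter windows of 300 bases around the start were matched for 134 of the 190 higher genes, 14 of the 17 lower ones and 11364 of all tested genes. AGGTCA, searched on both strands, was present in 23.9% of the higher, 7.14% of the lower and 15.2% of all. TTTGGCGC was present in 2.24%, 0% and 1.09%. The motifs were picked with results of these data known, and a match of letters is a description, not a binding site.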

How the data were processed

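RNA of sorted germ cells was measured in 28 libraries, 2 in each of 14 groups of genotype and time, taken from the labels. The authors deposited raw read counts per gene symbol, in 1 table for each replicate number. Bowtie, TopHat, Cufflinks and mm10 are named in the submitters' processing notes, and the counting program and strand setting are not given in the sources used here. Tables that the authors deposited under the name FPKM held CPM (reads normalised to the library total): their 12 h columns equalled CPM computed from the counts within 0.001, with the KO columns matching the count table of the other replicate number. They entered no test, and the numbers of the count tables were used.

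Of 43280 features, 27 with names turned into dates were left out. Rows for reads outside genes stayed out of library sizes; in WT replicate 1 at 12 h, 32.9% of all reads had no feature, 0.689% were ambiguous and 14.7% did not align uniquely. edgeR 4.0.16 in R 4.3.3 was run with TMM scaling, its filter on low counts by group (17519 genes kept) and robust quasi-likelihood F tests over all 28 libraries, with 1 mean per group, no replicate block and Benjamini-Hochberg adjustment over all genes at 0.05. The SE was the log2 fold change divided by the square root of F. CPM came from TMM-scaled totals. DESeq2 1.42.0, other scalings and filters, a replicate block and leaving out each library were alternatives. The script was tested on simulated data.

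Named genes were, among called genes with a gene name, non-overlapping genotypes and at least 5 CPM in either group, the 15 with the largest change and the 6 with the smallest p each way, called members of the gene lists and, in lists with none, the member with the smallest p. Other names were chosen after their values were seen. The lists and the rule were chosen with earlier results of these data known. Positions came from GENCODE M21 and promoter sequences from RefSeq (GRCm38.p6).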

Additional observations from a re-analysis of the deposited data

Results flagged for a closer look

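In the fit of all libraries, the difference between KO and WT in Mycn changed between 0 and 12 h. The call was lost in several fits that left out libraries, as given above. The test of that change gave a log2 difference of 1.76 ± 0.27 (SE) with an adjusted p of 0.0191 in edgeR, and both KO libraries lay above both WT libraries at 12 h but not at 0 h. Within WT, Mycn fell from 0 to 12 h (log2 -1.56 ± 0.19, adjusted p = 8.48e-06), and within KO the log2 change was 0.20 ± 0.19 (adjusted p = 0.591). These 3 values share libraries.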

How the results depend on the processing

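The count of 207 genes called between KO and WT at 12 h was 214 with RLE factors, 198 with upper-quartile factors, 194 without the robust estimate and 209 without the 3 shallowest KO libraries. It was 465 with no expression filter (370 higher, 95 lower), 353 in a fit of only the 2 groups (320 and 33) and 314 with DESeq2 (284 and 30). Leaving out 1 library at 12 h gave 19 to 64 genes, with the lone library assumed to vary like the other groups. Leaving out WT replicate 1 at 0, 12 and 18 h, chosen after seeing the data, gave 53, and leaving it out at all 7 times, chosen likewise, gave 215. The test of 12 h against 0 h, 1 gene in the report, gave 4 with RLE factors, 32 with no filter, 5 in a fit of only its groups, 21 with DESeq2, 0 to 3 when 1 library was left out, 0 without WT replicate 1 at 0, 12 and 18 h and 6 without it at all 7 times. The test of 18 h against 12 h gave 1 gene with no filter and 0 under every other alternative run. The cause of these shifts was not tested. None of the 55 called genes taken by the naming rule changed direction under any alternative run, which their lack of overlap at 12 h made nearly certain. Of these, 46 to 55 kept the call in the settings that used all 4 libraries, 10 to 20 did when 1 library was left out, and 16 and 36 did without WT replicate 1 at 3 and at 7 times.

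With the replicate number as a block, 315 genes (262 higher, 53 lower) were called at 12 h, all 207 among them, and 12 for 12 h against 0 h. Libraries sharing a number deviated from their group means with a correlation of -0.20 across genes at 12 h. The deposited CPM tables number the KO libraries the other way, which reverses this sign. The value therefore cannot decide whether the numbers pair WT with KO, and they were not taken as pairs. Within a genotype, same-numbered libraries of different times correlated at 0.22 to 0.57 in WT and -0.17 to 0.64 in KO. With a replicate block within WT only, chosen after seeing the data, 583 genes (440 higher, 143 lower) were called at 12 h, all 207 among them, and 24 for 12 h against 0 h. With the KO numbers crossed, as the deposited CPM tables number them, 329 (276 higher, 53 lower) and 11 genes were called.

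Depth limits low genes: of the 190 higher genes, 13 stayed under 5 CPM in both groups, and Krt75 rests on 1 WT read.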

Other observations

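WT replicate 1 at 12 h held a few transcripts at levels far from the other 3 libraries, none of them called. Beside Lars2, Yam1 stood at 15079 CPM there, against 2112 CPM in WT replicate 2 and 2435 and 1613 CPM in KO. Mir6236 stood at 115 CPM, against 1.54 CPM and 9.92 and 8.01 CPM. These genes were picked after their values were seen.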
